A study of Mus musculus with 6 samples.

Results

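The transcription factors AP-1 and EGR1 are the first genes that many cells switch on after a growth signal, a stress or a mechanical insult. The 10 factors described here are the FOS genes Fos, Fosb, Fosl1 and Fosl2, the JUN genes Jun, Junb and Jund, the stress-induced factor gene Atf3, the small MAF gene Maff and the zinc finger gene Egr1. They were chosen by family, as early factors that stress or warm digestion can induce, with earlier results of these data known. Their symbols were matched to Ensembl IDs, and all 10 were found among 56941 gene IDs in the count table. The libraries were made from lung cells of mice on postnatal day 7, selected with magnetic beads against CD31, an adhesion molecule of endothelial cells. In 1 group of 3 libraries the mice had been kept in room air (21% oxygen). In the other group of 3 they had been kept in hyperoxia (75% oxygen) from postnatal day 0. The sources used here name no strain, genotype or sex. They also do not say whether the libraries of a group were separate animals, and every p-value below reflects only how far these libraries spread, which may be technical.

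As background, AP-1 is a pair of proteins joined by a leucine zipper. FOS proteins bind DNA only with a partner, usually a JUN protein, whereas JUN proteins can also pair with each other. JUNB and JUND can weaken or redirect what JUN does, and ATF3 often acts as a repressor of genes that AP-1 turns on. Many of these genes answer within minutes through kinases of the ERK, JNK and p38 families and then fall silent again. In lung preparations they are also known to rise when tissue is digested with enzymes at body temperature, a step that every library here went through. The levels below are therefore those of cells after digestion and bead selection.

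The promoters of Fos, Junb, Jund and Atf3, which rose, are shown first, with that of Jun beside them because Jun did not pass the test. RefSeq start sites on GRCm38.p6 gave windows for 8 of the 10 factors, without Egr1 and Fosl1, and 10 windows in all, since Maff had 3. Each window is the 250 bases before the start, written 5′ to 3′ on the gene's strand. Capitals mark the cyclic AMP response core TGACG or its reverse CGTCA, the AP-1-like site TGACATCA and the TATA core TATAAA.
Fos, chr12:85473640-85473889, plus strand: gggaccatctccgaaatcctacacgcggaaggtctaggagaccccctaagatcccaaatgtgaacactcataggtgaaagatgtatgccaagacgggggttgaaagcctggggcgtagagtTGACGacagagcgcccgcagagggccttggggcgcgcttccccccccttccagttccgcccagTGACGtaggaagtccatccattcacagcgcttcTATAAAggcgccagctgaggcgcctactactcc
Junb, chr8:84978749-84978998, minus strand: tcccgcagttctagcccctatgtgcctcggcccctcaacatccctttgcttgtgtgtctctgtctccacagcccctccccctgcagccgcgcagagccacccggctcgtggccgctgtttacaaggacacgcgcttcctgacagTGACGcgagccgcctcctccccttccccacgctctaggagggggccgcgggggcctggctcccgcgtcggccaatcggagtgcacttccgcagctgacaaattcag
Jund, chr8:70697489-70697738, plus strand: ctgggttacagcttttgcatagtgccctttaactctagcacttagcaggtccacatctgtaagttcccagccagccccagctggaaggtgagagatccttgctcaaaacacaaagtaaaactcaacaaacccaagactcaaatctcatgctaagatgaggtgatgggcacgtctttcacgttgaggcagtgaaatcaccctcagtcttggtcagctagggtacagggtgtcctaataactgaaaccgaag
Atf3, chr1:191183334-191183583, minus strand: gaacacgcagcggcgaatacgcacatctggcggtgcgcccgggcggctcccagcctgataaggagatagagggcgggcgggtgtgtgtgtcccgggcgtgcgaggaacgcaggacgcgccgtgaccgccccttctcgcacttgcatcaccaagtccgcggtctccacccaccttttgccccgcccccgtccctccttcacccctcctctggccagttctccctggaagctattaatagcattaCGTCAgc
Jun, chr4:95052223-95052472, minus strand: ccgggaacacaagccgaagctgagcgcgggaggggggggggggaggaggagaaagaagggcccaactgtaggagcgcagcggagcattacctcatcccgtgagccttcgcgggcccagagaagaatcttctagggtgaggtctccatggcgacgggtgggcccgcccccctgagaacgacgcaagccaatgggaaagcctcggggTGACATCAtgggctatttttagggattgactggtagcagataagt

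Searched on both strands, TGACG was found in 6 of the 10 windows of these factors and in 17.8% of 32851 promoter windows of the same length. Fos held it at 66 to 62 and at 129 to 125 bases before its start, Junb at 106 to 102 and Atf3 at 7 to 3. The window of Jund held none of the motifs searched. Fosb and 2 windows of Maff held it as well, where in 1 Maff window it was part of the full site TGACGTCA, found in 1.55% of all windows. TGACATCA was found in Jun, 45 to 38 bases before its start, in 1 window of Maff, and in 2.93% of all windows. The AP-1 site TGACTCA (4.46% of all windows) and the CArG box bound by SRF (1.47%) were in 0 of the 10 windows. Sequence further upstream was not searched, and Egr1 and Fosl1 had no window. A site missing from these windows may therefore still be present in the promoter of the gene. The EGR site GCGTGGGCG (0.536% of all windows) was in 1 window of Maff, and the core TATAAA (12.4%) was in Fos. These matches describe letters in a short window and no binding was measured.

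The libraries held 39379793 to 42343192 counts each, and 17072 genes passed the filter on low counts. All 10 factors passed it. Pecam1, which encodes CD31, stood between 1930.2 and 3107 CPM, and the 12 pan-endothelial markers had a summed level of 13189 to 18168 CPM (counts scaled to library size by TMM) in room air and 10729 to 14818 CPM in hyperoxia. Markers of other cells were present too. The 8 alveolar type 2 markers summed to 12367 to 19359 CPM in room air, against 13837 to 16884 CPM in hyperoxia. The 9 alveolar type 1 markers all rose in hyperoxia, from a sum of 2281 to 3201 CPM to 5565 to 7372 CPM. In bulk samples of this kind, more cells of a type and more RNA per cell cannot be told apart.

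In hyperoxia, 5 of the 10 factors rose, 0 fell and 5 did not pass the test. The 5 were Egr1, Fos, Atf3, Junb and Jund, and their rises were modest, from 1.30-fold for Jund to 1.72-fold for Egr1. Of all genes tested, 6.77% were called higher by the same edgeR quasi-likelihood test at an adjusted p below 0.05, and 4.41% were called lower. The median log2 fold change of the 10 factors was 0.49, beside -0.01 over all genes tested, and 9 of the 10 estimates were above 0. That median was 0.30 with room air 1 left out and 0.79 with room air 2 left out. Hyperoxia libraries lay wholly above room air libraries for 6 factors, the 5 called ones and Maff, which was so for 16.5% of all genes. None of these calls held in every fit with 1 library left out. With room air 1 left out 0 factors were called, and with hyperoxia 3 left out 0 were called, while 9 of 10 estimates stayed above 0 in both cases. Over all genes, 754 and 713 were called higher in these 2 fits, beside 1156 with all 6 libraries.

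**Figure D1:**
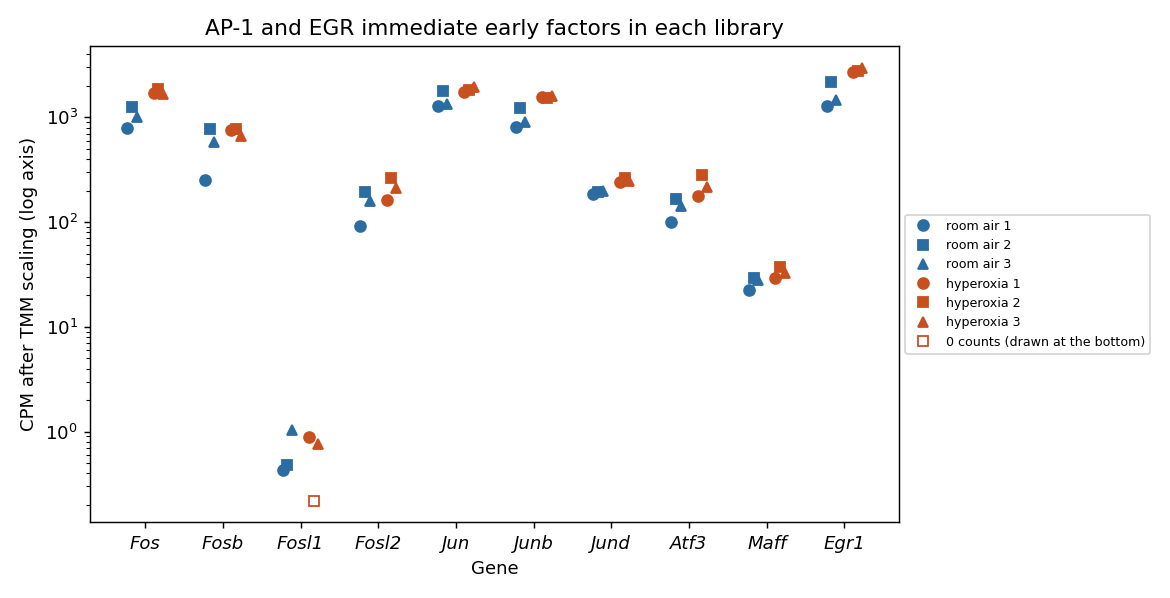
Level of each of the 10 factors in each library, in CPM on a log axis, with room air in blue and hyperoxia in orange and the replicate number shown by the marker. Room air 1 is the lowest of the 6 libraries for 9 factors, and Fosl1, near 1 CPM or below, has 0 counts in hyperoxia 2 (open square, drawn at the bottom).

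Among the FOS genes, Fos is the prototype of the immediate early response. Its level was 791, 1252 and 1019 CPM in the room air libraries and 1708, 1848 and 1658 CPM in the hyperoxia libraries. The groups did not overlap, and room air 1 was the lowest library. Fos rose from 1021 ± 231 to 1738 ± 99.0 CPM (n = 3 each, mean ± SD), a log2 change of 0.77 ± 0.17 (SE, edgeR adjusted p = 0.0182). Leaving out room air 1 took the log2 change to 0.60 and the adjusted p to 0.061, and leaving out hyperoxia 3 gave 0.79 and 0.0565. Fos passed when any of the other 4 libraries was left out.

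Fosb, whose protein and its truncated splice form can outlast that of Fos, stood at 254, 768 and 578 CPM in room air, against 762, 768 and 665 CPM in hyperoxia. Room air 2 was as high as the highest hyperoxia library, and room air 1 was far below the rest. The log2 fold change was 0.46 with a 95% interval of -0.21 to 1.13 (edgeR adjusted p = 0.392). Leaving out room air 1 took it to 0.11, and leaving out room air 2 to 0.81.

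Fosl2 encodes FRA2, a FOS protein that lacks the strong activation domain of FOS. Its level was 92.9, 196 and 159.8 CPM in room air, against 165, 266 and 212 CPM in hyperoxia, so that hyperoxia 1 lay below room air 2. The log2 fold change of 0.52 had an interval of -0.03 to 1.06 (edgeR adjusted p = 0.222), and it was 0.26 without room air 1 and 0.33 without hyperoxia 2. Fosl1, which encodes the related FRA1, was close to absent. It had 18, 19 and 43 counts in room air and 37, 0 and 30 in hyperoxia, and a count of 0 there allows up to 3 counts, or 0.0754 CPM. No difference was detectable at this depth (log2 fold change -0.24, interval -2.45 to 1.97), and 57.2% of its exonic bases overlap Ccdc85b on the other strand, a gene at 136 ± 23.8 CPM in room air.

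Among the JUN genes, Junb and Jund passed the test and Jun did not. Junb stood at 806, 1240.2 and 898 CPM in room air, against 1579, 1531 and 1592 CPM in hyperoxia. The hyperoxia libraries lay close together and above every room air library. Junb rose from 981 ± 229 to 1567 ± 32.1 CPM, a log2 change of 0.68 ± 0.17 (SE, edgeR adjusted p = 0.0292). Of the 6 fits with a library left out, only that without room air 2 kept the call (log2 fold change 0.88, adjusted p = 0.0112), and the others gave log2 fold changes of 0.54 to 0.69.

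Jund is the JUN gene that resting cells express, and it was the steadiest of the set. It had 187, 193 and 198 CPM in room air, against 241, 264 and 249 CPM in hyperoxia, with groups that did not overlap. The rise was the smallest of the 5 (log2 fold change 0.38, SE 0.10, edgeR adjusted p = 0.0408). Its log2 fold change stayed between 0.35 and 0.41 whichever library was left out, but it passed only without room air 3 (adjusted p = 0.0475), and not with a replicate block (adjusted p = 0.108). A pseudogene on the other strand, Gm11175, overlaps 52.6% of the exonic bases of Jund and had 0 counts in every library. With the strand setting not given, that 0 does not show that the level of Jund was unaffected.

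Jun itself, whose protein is the most active JUN partner, stood at 1294, 1772 and 1349 CPM in room air, against 1753, 1840.3 and 1932 CPM in hyperoxia. Hyperoxia 1 fell just below room air 2. The log2 fold change was 0.32 with an interval of -0.02 to 0.67 (edgeR adjusted p = 0.234), which leaves room for a rise of the size seen in Jund.

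Atf3, a stress-response factor that is also induced by p53 and by amino acid shortage, stood at 99.6, 168 and 142 CPM in room air, against 179, 283 and 217 CPM in hyperoxia. Every hyperoxia library was above every room air library, with a narrow gap between room air 2 and hyperoxia 1. The log2 fold change was 0.73 (SE 0.20, edgeR adjusted p = 0.0433). Its adjusted p was 0.129 with room air 1 left out, 0.0725 with room air 3, 0.124 with hyperoxia 2 and 0.0971 with hyperoxia 3, and 0.0581 when counts were scaled by library size only. Maff encodes a small MAF protein that has no activation domain and pairs with other leucine zipper factors. It stood at 22.6, 29.4 and 27.8 CPM in room air, against 29.5, 37.5 and 32.7 CPM in hyperoxia, groups that only just failed to overlap, and it did not pass (log2 fold change 0.32, interval 0.01 to 0.64, edgeR adjusted p = 0.185). Leaving out room air 1 took its log2 fold change to 0.21.

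Egr1 encodes a zinc finger factor that growth factors, shear stress and injury induce in vessels. Its level was 1284, 2182 and 1468 CPM in room air, against 2724, 2781 and 2991 CPM in hyperoxia. The groups were well apart. Egr1 rose from 1645 ± 475 to 2832 ± 141 CPM, a log2 change of 0.78 ± 0.20 (SE, edgeR adjusted p = 0.0291). As for Junb, leaving out any library but room air 2 took the adjusted p above 0.05, to between 0.0527 and 0.108, with log2 fold changes of 0.63 to 0.81.

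**Figure D2:**
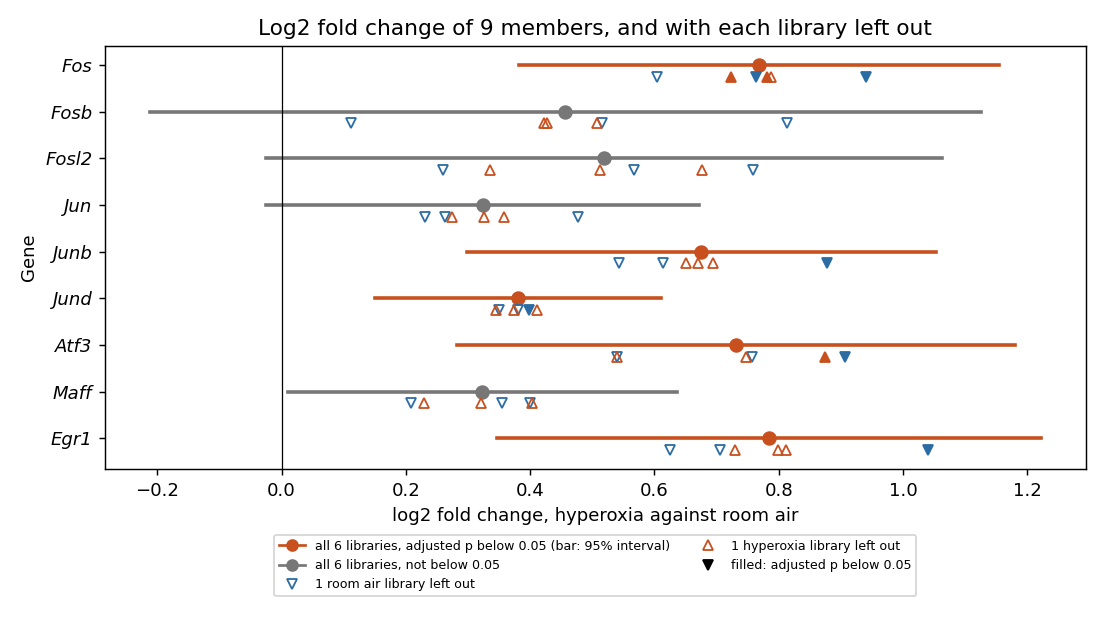
Log2 fold change of the 9 factors other than Fosl1 (hyperoxia against room air), as points with 95% intervals, and below each the estimates with 1 library left out (triangles, filled where the adjusted p is below 0.05). All estimates lie above 0, the 5 called factors run from 0.38 to 0.78, and few of the triangles are filled.

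For most of the factors, the room air libraries differed among themselves more than the hyperoxia libraries did. Room air 1 was the lowest of the 6 libraries for all 9 factors of at least 5 CPM, and room air 2 was the highest of its group for 8 of them. The median level of these 9 factors relative to each gene's own mean (log2) was -0.73, 0.01 and -0.28 in the room air libraries and 0.13, 0.37 and 0.29 in the hyperoxia libraries. The median SD of log2 CPM over the 10 factors was 0.36 in room air and 0.10 in hyperoxia, whereas over all genes tested it was 0.22 and 0.21. Jund, with an SD of 0.04 in room air and 0.07 in hyperoxia, and Fosl1, with its low counts, did not share that pattern. Atf3 (0.38 in room air and 0.33 in hyperoxia) and Maff (0.20 and 0.17) were nearly as spread in hyperoxia. Fosl2 had 0.56 in room air and 0.35 in hyperoxia. Room air 1 also had the highest summed pan-endothelial level (18168 CPM) and the lowest alveolar type 1 level (2281 CPM). Hyperoxia 2, the highest library for 5 of the 9 factors, had the lowest pan-endothelial level (10729 CPM) and the highest alveolar type 1 level (7372 CPM). Room air 2, above room air 3 for most of the factors, went the other way. Its pan-endothelial level was 17466 CPM and its alveolar type 1 level 2596 CPM, against 13189 and 3201 CPM in room air 3. The part of these cells in the levels of the 10 factors was not tested.

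Levels can be compared between genes only per length of exon, here in CPM per kilobase with GENCODE M21 lengths. In room air, Jun (461 ± 81.9), Fos (434 ± 98.1), Junb (427 ± 99.5) and Egr1 (367 ± 106) overlapped in their spread over libraries. Within each room air library, Egr1 was the lowest of the 4 (286, 487 and 327). Jun was above Junb in each, while the place of Fos changed. Jund (116 ± 3.30), Fosb (85.4 ± 41.6) and Atf3 (63.3 ± 15.9) formed a lower tier, followed by Fosl2 (15.4 ± 5.39), Maff (10.2 ± 1.38) and Fosl1 (0.321 ± 0.164). Of the exonic bases of Jund and Fosl1, 52.6% and 57.2% overlap genes on the other strand. The strand setting is not given, so their levels per kilobase may be too low and their places are uncertain. In hyperoxia the order at the top was Fos (739 ± 42.1), Junb (681 ± 13.9), Egr1 (632 ± 31.4) and Jun (578 ± 28.2). That order held in each of the 3 hyperoxia libraries, with gaps between neighbouring means larger than either SD. The summed level of the 7 FOS and JUN genes was 1255, 1886 and 1475 CPM per kilobase in room air and 2246, 2337 and 2281 CPM per kilobase in hyperoxia.

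Within that pool the share of Fos was larger, and that of Jun smaller, in all 3 hyperoxia libraries than in any room air library. Fos made up 26.8% to 29.4% of the pool in room air and 30.9% to 33.6% in hyperoxia. Jun made up 28.7% to 32.3% in room air and 24.5% to 26.6% in hyperoxia, and neither range overlapped the other group's. Junb took 26.5% to 28.6% in room air and 28.5% to 30.6% in hyperoxia. The FOS family as a whole held 30.8% to 36.8% in room air and 36.5% to 40.1% in hyperoxia, ranges that overlapped. Because Jund is part of the pool and overlaps another gene, the size of every share is uncertain. The ratio of Fos to Jun per kilobase was 0.829, 0.958 and 1.02 in room air and 1.32, 1.36 and 1.16 in hyperoxia. This ratio was chosen after the values were seen and is given without a test.

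**Figure D3:**
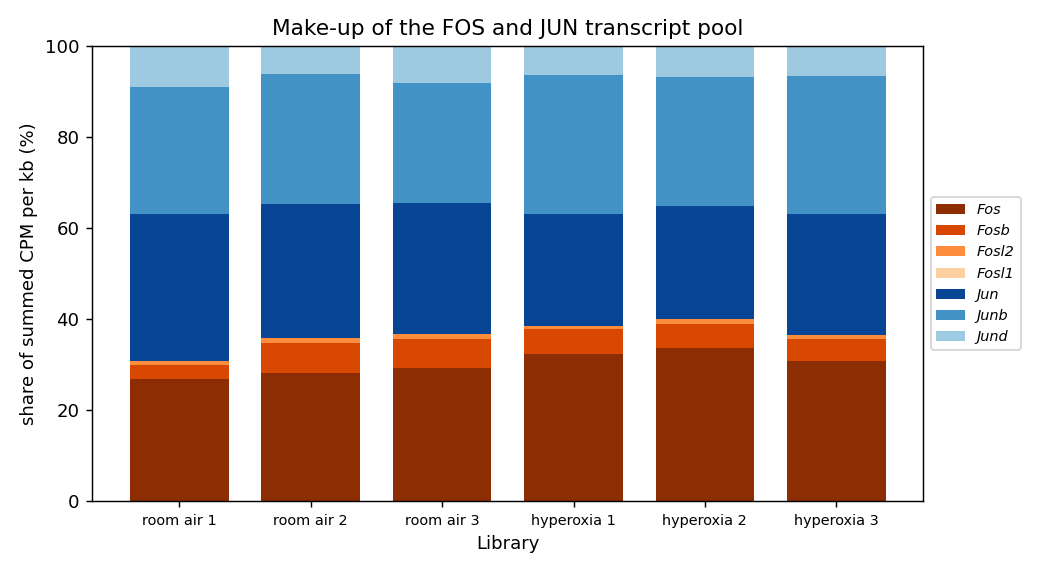
Share of each FOS gene (browns) and JUN gene (blues) in the summed CPM per kilobase of the 7 genes, 1 bar per library. The Fos share is 26.8% to 29.4% in room air and 30.9% to 33.6% in hyperoxia, Jun is lower in hyperoxia, and Fosl1 is too small to see.

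The EGR relatives and the NAB corepressors went with Egr1 in part. Of 5 genes, 2 rose (40%, beside 6.77% of all genes tested) and 3 did not pass (median log2 fold change 0.57). Egr2 rose from 24.6, 39.3 and 24.6 CPM to 61.2, 76.2 and 66.9 CPM, a log2 change of 1.21 ± 0.18 (SE, edgeR adjusted p = 0.00238), and it passed whichever library was left out. Nab1, which encodes a protein that binds EGR factors and represses them, rose by less (log2 fold change 0.38, SE 0.10, edgeR adjusted p = 0.0417). Its log2 fold change was 0.31 to 0.43 with a library left out, but none of those fits called it (adjusted p 0.0575 to 0.134). Its relative Nab2, itself an EGR1 target, had a log2 fold change of -0.04 (interval -0.31 to 0.24), and 42.2% of its exonic bases overlap genes on the other strand. Egr4 was low, at 0.895, 0.765 and 0.675 CPM in room air and 1.53, 3.06 and 1.80 CPM in hyperoxia. It just missed the threshold (log2 fold change 1.45, interval 0.52 to 2.38, edgeR adjusted p = 0.0510). Egr3 had a log2 fold change of 0.57 (interval 0.03 to 1.11, edgeR adjusted p = 0.178).

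Of 22 other leucine zipper factors, many of which can pair with FOS, JUN or MAF proteins, 3 rose and the other 19 were not called. The share called higher was 13.6%, beside 6.77% of all genes tested. The median log2 fold change was 0.08. Atf5, a factor of the amino acid and mitochondrial stress responses, rose from 17.5 ± 1.21 to 40.2 ± 9.52 CPM, a log2 change of 1.20 ± 0.17 (SE, edgeR adjusted p = 0.00156). Atf6, a sensor of stress in the endoplasmic reticulum, had a log2 fold change of 0.45 (SE 0.10, adjusted p = 0.0184) but its adjusted p was 0.0519 with room air 3 left out, 0.0744 with hyperoxia 1 and 0.0705 with hyperoxia 3. Batf, a partner of JUN proteins known from immune cells, rose from 6.65 ± 1.75 to 11.9 ± 2.57 CPM, a log2 change of 0.84 ± 0.24 (SE, adjusted p = 0.0444). Its call was lost in 5 of the 6 fits with a library left out (adjusted p 0.0665 to 0.155).

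Among other immediate early genes, most calls were higher, and the share called lower was near that over all genes tested. Of 36, 11 rose (30.6%, beside 6.77% of all genes tested), 2 fell (5.56%, beside 4.41%) and 23 were not called. Their median log2 fold change was 0.31. Arc rose from 6.72, 10.8 and 8.63 CPM to 17.2, 37.5 and 22.6 CPM, a log2 change of 1.57 ± 0.28 (SE, edgeR adjusted p = 0.00486). Gadd45b, a stress and growth arrest gene, rose from 36.5 ± 7.90 to 79.2 ± 11.8 CPM, a log2 change of 1.12 ± 0.17 (SE, adjusted p = 0.00238). Ccn1, a secreted matrix protein gene long used as an immediate early marker, rose from 270.4 ± 69.8 to 558 ± 166 CPM, a log2 change of 1.05 ± 0.23 (SE, adjusted p = 0.0163). Leaving out room air 1 ended the call of Ccn1 (adjusted p = 0.0555).

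The genes that fell in that list were Klf2, which blood flow induces in endothelial cells, and the kinase gene Sgk1, both named after their values were seen. Klf2 fell from 1129 ± 222 to 692 ± 13.0 CPM, a log2 change of -0.71 ± 0.16 (SE, edgeR adjusted p = 0.0176), and Sgk1 from 900.2 ± 149 to 616 ± 21.3 CPM, a log2 change of -0.55 ± 0.14 (SE, adjusted p = 0.0352). In fits that left out room air 2, hyperoxia 1 or hyperoxia 3, 0 genes of the list were called lower.

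Some of the classical early genes did not go with Fos. Nr4a1, a nuclear receptor gene, and Dusp1, a phosphatase gene that switches off JNK and p38, were also chosen after their values were seen. Nr4a1 stood at 668, 1077 and 867 CPM in room air, against 643, 944 and 795 CPM in hyperoxia (log2 fold change -0.13, interval -0.56 to 0.30, edgeR adjusted p = 0.726). Within room air it ordered the libraries as Fos did, and the ratio of Fos to Nr4a1 counts was 1.18, 1.16 and 1.18 there. In hyperoxia that ratio was 2.65, 1.96 and 2.08, on a scale not corrected for length. Dusp1 was at 1118, 1308 and 1060.3 CPM in room air, against 993, 1049 and 1037 CPM in hyperoxia (log2 fold change -0.18, interval -0.48 to 0.12, adjusted p = 0.456). Every hyperoxia library was below every room air library for Dusp1, which was so for 14.4% of all genes. The ratio of Fos to Dusp1 went from 0.708, 0.957 and 0.961 to 1.72, 1.76 and 1.60. These ratios describe genes picked because they did not rise with Fos, so no test is given.

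**Figure D4:**
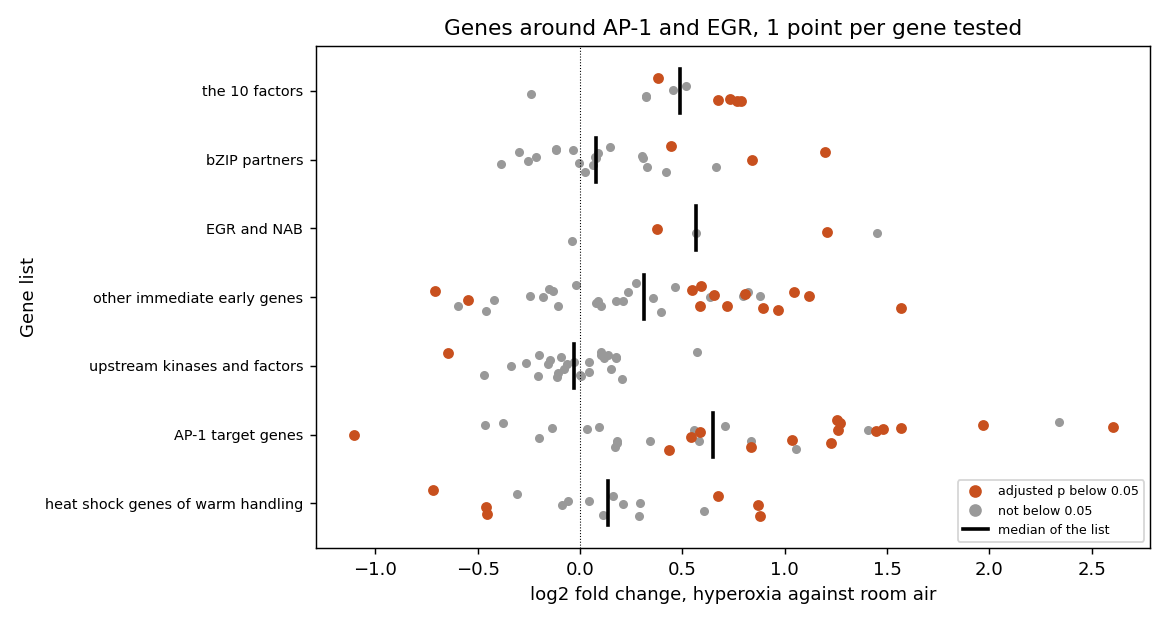
Log2 fold change (hyperoxia against room air) of each gene tested in the 10 factors and 6 related lists, with called genes in orange, others in grey and the list median as a bar. The median is 0.49 for the 10 factors, 0.65 for the AP-1 target genes and -0.03 for the upstream kinases and factors.

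Among genes that act above AP-1, 0% were called higher and 3.70% lower, beside 6.77% and 4.41% of all genes tested. Of 27 genes for SRF, its partners, the kinases of the ERK, JNK and p38 cascades, and Fbxw7 and Cops5, whose proteins act on the turnover or activity of JUN, 0 rose, 1 fell and 26 did not pass, with 3 at an unadjusted p below 0.05 in the edgeR test, and the median log2 fold change was -0.03. Of all 17072 genes tested, 4298 were at an unadjusted p below 0.05 in the edgeR test. By DESeq2 0 of the 27 rose and 2 fell. The gene that fell was Map2k6, which encodes a kinase that activates p38, from 19.6 ± 2.30 to 12.5 ± 2.62 CPM, a log2 change of -0.65 ± 0.18 (SE, edgeR adjusted p = 0.0459). It did not pass when any 1 library was left out (adjusted p 0.0564 to 0.143). Activity of these kinases depends on phosphorylation, which RNA levels do not show.

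Of 32 tested genes long described as AP-1 or EGR1 targets, 14 rose, 1 fell and 17 did not pass (median log2 fold change 0.65). In shares, 43.75% were higher and 3.1% lower, beside 6.77% and 4.41% of all genes tested. Many of them answer to other factors too. Lif, a cytokine gene, rose from 1.42 ± 0.448 to 8.67 ± 1.80 CPM, a log2 change of 2.60 ± 0.30 (SE, edgeR adjusted p = 0.000632). Sphk1, which makes sphingosine-1-phosphate, rose from 7.16 ± 1.06 to 28.0 ± 7.89 CPM, a log2 change of 1.97 ± 0.21 (SE, adjusted p = 0.000422). Cxcl1, a neutrophil chemokine gene, rose from 2.66 ± 1.02 to 7.91 ± 2.19 CPM, a log2 change of 1.57 ± 0.33 (SE, adjusted p = 0.0126). These 3 passed whichever library was left out. The gene that fell was the cyclin gene Ccna2, from 50.5 ± 15.2 to 23.5 ± 4.13 CPM. The other 4 genes of the list, collagenase and stromelysin genes among the first AP-1 targets described (Mmp1a, Mmp3, Mmp10 and Mmp13), had at most 30 counts in any library and were not tested.

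Heat shock genes, which warm handling of tissue can also induce, went both ways. Of 16, 3 rose (18.75%, beside 6.77% of all genes tested), 3 fell (18.75%, beside 4.41%) and 10 were not called. The list had a median log2 fold change of 0.14. The chaperone gene Hspa1a rose from 70.0, 108 and 90.1 CPM to 147, 139 and 207 CPM, a log2 change of 0.88 ± 0.18 (SE, edgeR adjusted p = 0.0121), but not without room air 1 (adjusted p = 0.0511). Hspa1a has a nearly identical copy, Hspa1b, so the split of reads between them is uncertain, and 19.0% of its exonic bases overlap another gene. Dnajb4 (log2 fold change 0.87, SE 0.13) and Hspa4l (0.68, SE 0.15) rose, while Chordc1 (-0.72, SE 0.11), Dnaja1 (-0.46, SE 0.11) and Hsph1 (-0.45, SE 0.12) fell. Room air 1, the lowest library for the early factors, was also the lowest for Hspa1a, for Hspa1b (107, 203 and 189.7 CPM in room air, against 228, 215 and 317 CPM in hyperoxia) and for Dnajb1 (116, 142 and 117 CPM in room air, against 150.01 to 157 CPM in hyperoxia). Other genes of the list went the other way, and Hspa8 (1697 CPM) and Hsph1 (39.6 CPM) were highest in room air 1. The median of the list relative to each gene's mean (log2) was -0.05, -0.01 and -0.06 in the room air libraries. In the hyperoxia libraries it was 0.08, 0.08 and 0.09. Hspa1b, Dnajb1 and Hspa8 were named after their values were seen and did not pass the test. The part of handling in these levels was not tested.

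**Figure D5:**
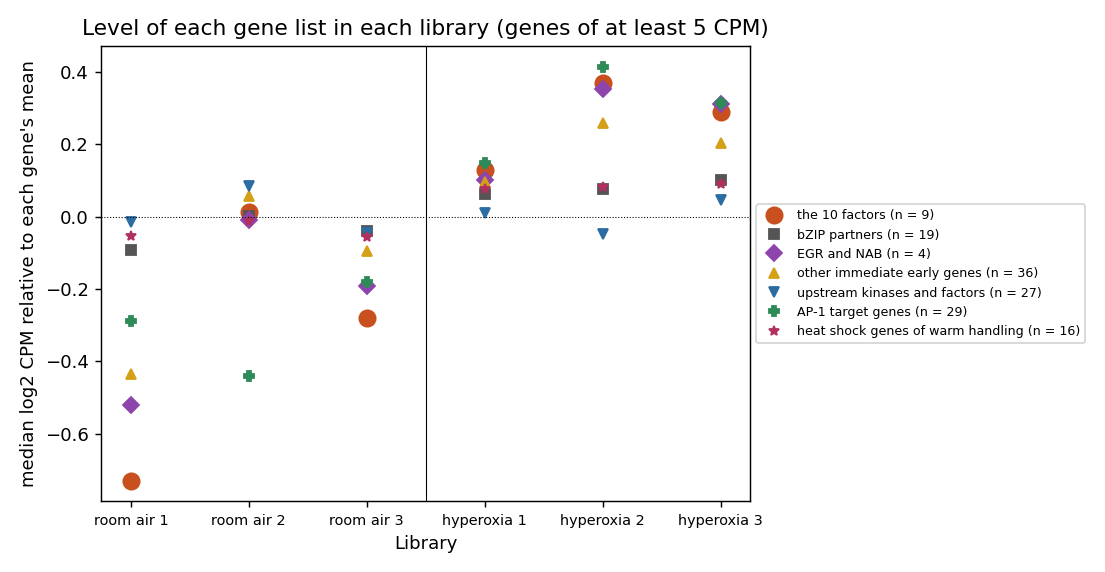
Median log2 CPM of each gene list in each library, relative to each gene's own mean over the 6 libraries, for genes of at least 5 CPM. The 10 factors (large circles) run from -0.73 in room air 1 to 0.37 in hyperoxia 2, while the upstream and heat shock lists stay within 0.1 of 0 in every library.

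The genes patterned most like Fos and like Atf3 were sought among 10868 named genes of at least 5 CPM, by the root mean square difference of log2 CPM over the 6 libraries after centring each gene. Closest to Fos were Trp53bp2 (0.092), Tob1 (0.0931) and Prkci (0.0943), which encode a p53-binding protein, an antiproliferative protein and an atypical protein kinase C. Closest to Atf3 were Prkaa2 (0.0482), a catalytic subunit gene of AMP-activated kinase, the glycine transporter gene Slc6a9 (0.0664) and again Tob1 (0.0783). Tob1 stood at 47.9, 78.4 and 63.3 CPM in room air, against 91.7, 122.7 and 104 CPM in hyperoxia. How close such matches come for other patterns was not measured, and these are descriptions only.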

How the data were processed

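RNA-seq of 6 libraries was analysed, 3 per group, grouped by their titles. The values used were raw counts deposited by the authors for 56941 Ensembl IDs. The submitters' processing notes name the build GRCm39 and the tools DESeq2, featureCounts, HISAT2 2.2.1 and Subread 2.0.6, without role or order. The sources used here give no annotation release, strand setting or handling of multimapped reads, so genes that overlap another gene are uncertain. Symbols were matched by ID for 51948 IDs. Exon lengths and overlaps came from GENCODE M21 and promoters from RefSeq, both on GRCm38.

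In R 4.3.3, genes were kept by edgeR 4.0.16 filterByExpr (minimum count 10, minimum total 15), leaving 17072. TMM factors were 0.975 to 1.04, and hyperoxia was compared with room air by edgeR's robust quasi-likelihood test without covariate, with Benjamini-Hochberg adjustment over all genes tested and a threshold of 0.05. Standard errors are the log2 fold change over the root of F, and 95% intervals follow from them; both are approximate. Centred levels and SDs of log2 CPM used a prior count of 2. Tested on simulated data for this comparison (16687 genes), the method called 61% of 100 genes changed by a log2 of 1 and 83.8% of 99 changed by 2, with 10 false among 154 calls. Changes smaller than a log2 of 1, as estimated for all 10 factors, were not simulated. No 2 libraries of a group were duplicates (chi-square divided by its degrees of freedom: 15 or more). Floors for a count of 0 cover counting error only.

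The factors and gene lists were chosen with earlier results of these data known, so lists are given by counts and medians. Beside the 10 factors, the text names of each list the 3 called genes with the largest change and groups that did not overlap (2 abundant genes where there were none), and the 3 genes patterned most like Fos and like Atf3. Named after their values were seen were Klf2, Sgk1, Nr4a1, Dusp1, Nab2, Egr3, Egr4, Ccna2, Hspa4l, Dnaja1, Hsph1, Hspa1b, Dnajb1 and Hspa8. Alternatives were DESeq2 1.42.0, limma-voom (limma 3.58.1), other scalings, filters and thresholds, the replicate number as a block and each library left out.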

Additional observations from a re-analysis of the deposited data

How the results depend on the processing

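Under the 8 other scalings, filters, tests and the block, 9 of 10 factors kept an estimate above 0. The factors called higher numbered 5 in the main analysis and 4 to 6 there, 0 at a threshold of 0.01, and 0 to 4 with a library left out. Without room air 1 the log2 fold change was 0.60 for Fos, 0.63 for Egr1, and 0.54 for both Junb and Atf3, all lower than with 6 libraries, and fits on 5 libraries have fewer samples. Fosl1 ranged from -0.77 to 0.35 with a library left out, and turned from -0.24 to 0.26 without room air 3 and to 0.35 without hyperoxia 2; with so few counts its direction is not determined. Fosl2 passed with no filter on low counts (adjusted p = 0.00857) and with the replicate block (0.0432). Same-numbered libraries did not deviate together (correlations 0.112, -0.0389 and -0.0899), so the numbers were not taken to pair samples. With the block 4 factors passed (Fos, Fosl2, Atf3 and Egr1).

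Of all genes, 1156 were higher and 753 lower. At a threshold of 0.01 these were 556 and 233. The lower genes numbered 1243 with no filter, 1242 by DESeq2 and 1235 at a threshold of 0.1. With a library left out, 681 to 1095 were higher and 376 to 749 lower.

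At the 0.01 threshold, counts higher were 1 for the other leucine zipper factors and 1 for EGR and NAB. They were 5 for the other early genes, 8 for the target genes and 1 for heat shock. Counts lower were 0 for the other early genes, 0 for the upstream genes and 1 for heat shock. At 0.1, 1 of the other leucine zipper factors, 2 upstream genes and 2 target genes were lower. EGR and NAB genes called higher were 1 with library size only or the block and 4 with no filter. Lower calls among the other early genes were 4 with no filter and 1 with the block, and among heat shock genes 1 with the block. Upstream genes called lower were 2 with DESeq2 size factors, library size only, upper-quartile scaling, no filter, 1 CPM in 3 libraries or DESeq2, and 0 with the block, and 1 was higher with no filter. Target genes called lower were 2 with library size only, no filter or DESeq2.

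With a library left out, counts higher ranged from 1 to 2 for the other leucine zipper factors and stayed at 1 for EGR and NAB. They ranged from 7 to 12 for the other early genes, 10 to 15 for the targets and 1 to 3 for heat shock. Counts lower ranged from 0 to 3 for the other early genes, 0 to 1 for the upstream genes, 1 to 3 for the targets and 1 to 2 for heat shock. The mean FOS family share, whose group ranges overlapped, was 3.90 percentage points higher in hyperoxia, 2.07 to 5.06 with a library left out. The cause of these differences between settings was not tested.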
